A study of Homo sapiens with 8 samples.

Results

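The transcription factors that build the B-cell and germinal-centre programme, and those that end it in the plasma cell, were followed in SUDHL6 cells treated with compounds directed at EZH2. The members were chosen by name: BCL6, IRF4, IRF8, PRDM1, PAX5, SPIB, POU2AF1, BACH2, EBF1 and MEF2B, which are 10 of the 19709 genes listed in at least 1 of the 3 deposited tables. All 10 were listed in the MS8815 table. The EPZ-6438 and MS8815N tables each listed 9 of them, without IRF4. SUDHL6 is an established human line from a diffuse large B-cell lymphoma of the germinal-centre B-cell-like type, and the labels name no genetic change in any group. Cells received DMSO as vehicle, MS8815, EPZ-6438 or MS8815N, each labelled 2.5 µM, for 18 h, and each of the 4 groups has 2 RNA-seq libraries. MS8815 is described as a PROTAC against EZH2, a molecule built to have its target degraded. EPZ-6438 (tazemetostat) is an inhibitor of EZH2's catalytic SET domain, and MS8815N is the non-PROTAC analog control. The labels call the libraries duplicates and do not say from how many cultures they came. The p-values therefore rest on the spread of 2 libraries a group, and that spread may be technical rather than biological. All 3 comparisons with vehicle use the same 2 DMSO libraries.

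EZH2 is the catalytic subunit of Polycomb repressive complex 2, which places the repressive mark H3K27me3, and germinal-centre B cells depend on it. PAX5 and EBF1 establish and hold B-lineage identity by activating genes such as CD79A. BCL6 is the master repressor of the germinal centre, MEF2B is an activator of BCL6, and SPIB, IRF8 and POU2AF1 (the octamer coactivator OCA-B) act alongside them at that stage. BACH2 restrains plasma-cell differentiation, while IRF4 and PRDM1 (BLIMP-1) drive it, PRDM1 by silencing the B-cell programme. BCL6 and PRDM1 repress each other's programmes, and terminal differentiation replaces the first set by the second.

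The transcript of the targeted gene, EZH2, was measured at 4429.9 and 4674 normalised read counts in the DMSO libraries, 4587 and 4637 in EPZ-6438, 4409 and 4509 in MS8815N, and 3883 and 3673 in MS8815. Counts stand on 1 common scale, that of the MS8815N table, unless another is named. EZH2 transcript fell by 0.27 ± 0.06 (SE) on the log2 scale in MS8815 as deposited (adjusted p = 0.0123), differed by -0.04 after quantile normalisation (adjusted p = 0.593), and was higher by 0.74 ± 0.06 when B-cell surface genes set the scale (adjusted p = 0.000386). This does not check the compounds, because a degrader acts on the protein. The 2 MS8815 libraries stood apart from the other 6. Their estimated depth was 13.0 and 14.6 M reads against 26.01 to 34.1 M elsewhere. Of 16 measured markers of adherent epithelial, fibroblast and endothelial cells, 13 were higher and 0 lower in MS8815, and their summed level was 1987 to 2041 CPM (a share of all normalised counts in the library) against 483 to 488 in DMSO. VIM, abundant in the vehicle-treated cells too, made up 1194 to 1228 CPM in MS8815 and 430.0 to 435 in DMSO, and the other 15 markers together 793 to 813 against 47.4 to 57.9. The 3 of these with the highest level in MS8815 were VIM, an intermediate filament protein (log2 fold change 1.53), CAV1 of caveolae (4.20) and the epithelial keratin KRT8 (4.05). None of the 16 was at 0 in both MS8815 libraries, although E-cadherin (CDH1) and decorin (DCN) had means of 3.29 and 1.93 normalised counts there on the scale of the MS8815 table. Of 19 B-cell surface and receptor genes, 16 were lower and 0 higher, and their sum was 3244 to 3348 CPM against 6716 to 6781. Over all 18744 genes, 24.5% were higher and 22.4% lower in MS8815 against DMSO. In EPZ-6438 and MS8815N the sum over the 14 adherent-cell markers listed there was 553 and 574 to 590.1 CPM. Which of the 2 library kits named in the labels was used for each library is not given, so kit and compound cannot be told apart.

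The promoter sequence of 9 of the 10 members was at hand from RefSeq (GRCh38.p14), as windows from 250 bases before to 50 after a transcription start. These 3 stretches are shown because they carry the motifs found for the factors studied here, in genes that changed in MS8815. Capitals mark the motifs, each sequence reads 5′ to 3′ on the gene's own strand, and all 3 genes lie on the minus strand.
EBF1, chr5:159097978-159098007: gaATTGGgtaactgggctGGAAGTGAAAgt
MEF2B, chr19:19170318-19170347: gtATGCAAATaagcccgtcccgcCCAATca
BCL6, chr3:187745419-187745438: agaagtTTCTAGGAAaggcc
The EBF1 stretch holds the ETS-IRF composite (GGAA and GAAA with any 2 bases between them), the element read jointly by SPIB or PU.1 and IRF4 or IRF8, at -33 to -24 from the start, and a CCAAT box on the opposite strand at -49 to -45. The MEF2B stretch holds the octamer ATGCAAAT, the site read by POU2F1 and POU2F2 with POU2AF1, at -82 to -75, and a CCAAT box at -61 to -57. The BCL6 stretch holds the BCL6 core TTCCTAGAA on the opposite strand, at bases 37 to 45 after the start. In GENCODE 29 the first stretch lies within an EBF1 transcript outside its exons, the second within a BORCS8-MEF2B transcript outside its exons, and the third in a 5′ untranslated exon of BCL6 that an exon of AC072022.2 overlaps.

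Both strands of all windows were searched for 7 motifs, and overlaps were allowed. Of 35116 promoter windows, 2.82% held the ETS-IRF composite, 1.77% the octamer, 0.373% the BCL6 core and 34.6% CCAAT. Among the 9 members with a window, the counts were 1, 1, 1 and 2. The interferon-stimulated response element (GAAA repeated after any 2 bases, 3.57% of windows), the Maf recognition element read by BACH2 (0.154%) and the ETS site CCGGAAGT (4.14%) were in the windows of 0 members. These matches describe letters and are not evidence of binding.

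In GENCODE 29 coordinates of GRCh38, BCL6 lies on chromosome 3 from 187721377 to 187745727, IRF8 on 16 from 85898803 to 85922609, PAX5 on 9 from 36833275 to 37034185 and EBF1 on 5 from 158695916 to 159099761. SPIB lies on 19 from 50418938 to 50431313, MEF2B on 19 from 19145568 to 19170289 and POU2AF1 on 11 from 111352252 to 111455630. Chromosome 6 holds IRF4 (391739 to 411447), BACH2 (89926529 to 90296908) and PRDM1 (106086320 to 106109939).

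In vehicle-treated cells the germinal-centre factors were abundant and the plasma-cell factors were close to the limit of detection. Per kilobase of the median coding transcript, MEF2B had the highest level of the 10 in DMSO, at 11108 normalised counts per kb on the scale of the MS8815 table. PAX5 (3736), SPIB (3283), POU2AF1 (3223) and BCL6 (2855) came next, then IRF8 (1651) and EBF1 (446). BACH2 (17.6), PRDM1 (3.37) and IRF4 (0.121) were far lower. The order among PAX5, SPIB, POU2AF1 and BCL6 rests on the transcript length used. With the longest coding transcript, POU2AF1 had 3223, BCL6 2443, SPIB 1249, IRF8 759 and PAX5 458 per kb, while MEF2B stayed first and BACH2, PRDM1 and IRF4 last. PAX5 and BACH2 were also the least repeatable members above 100 counts. Between the DMSO libraries BACH2 differed by 0.91 and PAX5 by 0.37 on the log2 scale, against a median of 0.07 over 10402 genes with at least 100 counts. A difference as large as that of BACH2 was seen in 0.510% of those genes.

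**Figure D1:**
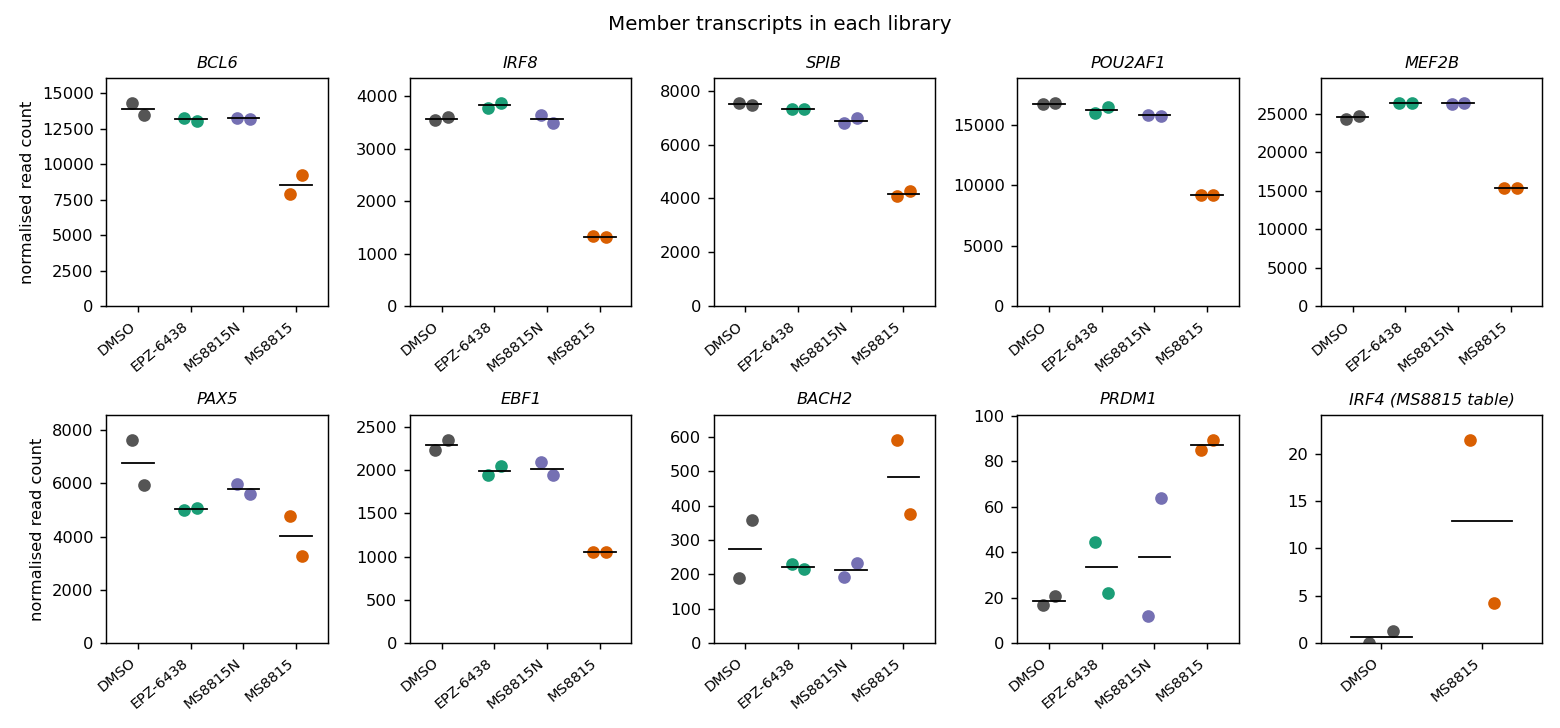
Normalised read count (vertical axes, each starting at 0) of each member in every library of the 4 groups on the horizontal axis; points are libraries, lines are group means, and IRF4 is shown on the scale of the MS8815 table, which alone lists it. The MS8815 points of IRF8, EBF1, POU2AF1, SPIB, BCL6, MEF2B and PAX5 lie below every DMSO point, and those of PRDM1 above every one.

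With the scaling the authors deposited, 7 B-cell and germinal-centre factors fell under MS8815 and PRDM1, the plasma-cell repressor, rose, while 5 of the 7 had values above DMSO when B-cell surface genes set the scale. As deposited, 8 of the 10 members passed the test (7 lower, 1 higher, adjusted p under 0.05 in limma), against a background of 46.9% of 18744 genes (22.4% lower, 24.5% higher). The median log2 fold change of the members was -0.74, and that of all genes was 0.00. More abundant genes had a lower median. With the lower 50% of genes removed, PRDM1 and IRF4 among them, it was -0.19 over 9372 genes and -0.81 over the 8 members left. The library values did not overlap between MS8815 and DMSO for any of the 10 members (3 higher, 7 lower). This was also true of 73.7% of all genes (37.9% higher, 35.9% lower). IRF4, 1 of the 3 higher, is listed only through its MS8815 reads, so its place among them follows from the listing. With libraries scaled to the 19 B-cell surface and receptor genes, 8 members again passed, but 7 were higher, IRF4 among them, and 1 lower. This scaling takes its factor as known, so every SE and p-value on it leaves out the scatter of the 19 genes. Their log2 fold changes ran from -2.22 to 2.01 as deposited. On that scale 71.7% of all genes passed, 70.8% higher and 0.864% lower, with a median of 0.98. With quantile normalisation 6 passed, all lower, against 48.7% of all genes (19.8% higher, 28.9% lower) with a median of -0.20. In each test that leaves out 1 library, the remaining library of that group is assumed to vary like the others. In bulk RNA, fewer B cells in a culture and less RNA of these genes per B cell cannot be told apart.

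IRF8, an interferon regulatory factor of germinal-centre B cells, fell the most. It was measured at 3554 and 3604 normalised counts in the DMSO libraries, 3781 and 3878 in EPZ-6438, 3646 and 3494 in MS8815N, and 1335 and 1316 in MS8815. The MS8815 libraries lay far below the other 6 and close to each other. Its level was 37.0% of DMSO, a log2 fold change of -1.43 ± 0.06 (adjusted p = 3.83e-05), and 0.508% of 10621 genes with at least 100 counts were as low. IRF8 also fell when the B-cell genes set the scale, by 0.43 ± 0.06 on the log2 scale (adjusted p = 0.00225), and by 1.29 after quantile normalisation. It was the 1 member that was lower with all 3 scalings and passed each time.

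EBF1, the lineage factor, was measured at 2236 and 2353 counts in DMSO, 1943 and 2042 in EPZ-6438, 2092 and 1939.9 in MS8815N, and 1051 and 1048 in MS8815. The MS8815 libraries were the lowest and close together, and the other 2 compounds lay slightly under DMSO. EBF1 fell to 45.7% of DMSO, by 1.13 ± 0.07 on the log2 scale (adjusted p = 0.000154). Relative to the B-cell surface genes the difference was -0.12 ± 0.07 and did not pass (adjusted p = 0.182). PAX5, its partner, was measured at 7643 and 5919 counts in DMSO, 4983 and 5067 in EPZ-6438, 5977 and 5615 in MS8815N, and 4776 and 3255 in MS8815. The MS8815 libraries were both below DMSO but differed from each other by 0.55 on the log2 scale. PAX5 fell by 0.77 ± 0.20 (adjusted p = 0.0210) as deposited and was 0.23 higher, without passing (adjusted p = 0.373), on the B-cell scale. Its call was lost without DMSO replicate 1 (adjusted p = 0.195), without DMSO replicate 2 (0.0765), without MS8815 replicate 2 (0.151) and after quantile normalisation (0.0916).

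As deposited, POU2AF1 and SPIB fell by nearly the same amount, and both were higher on the B-cell scale. POU2AF1 was measured at 16689 and 16811 counts in DMSO, 16009 and 16454 in EPZ-6438, 15801 and 15734 in MS8815N, and 9235 and 9189 in MS8815. SPIB, an ETS factor of the PU.1 family, was measured at 7547 and 7457 in DMSO, 7332 and 7315.0 in EPZ-6438, 6811 and 6969 in MS8815N, and 4077 and 4262 in MS8815. In both genes the MS8815 libraries were well below every other library. POU2AF1 reached 55.0% of DMSO (log2 fold change -0.86 ± 0.03, adjusted p = 2.61e-05) and SPIB 55.6% (-0.85 ± 0.05, adjusted p = 7.03e-05). After quantile normalisation the values were -0.55 and -0.58. On the B-cell scale they were higher by 0.14 (adjusted p = 0.0102) and 0.16 (adjusted p = 0.0231). These p-values leave out the scatter of the reference genes, of which CD79B fell by 0.84 and CD79A by 0.91 as deposited.

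BCL6 and its activator MEF2B fell the least of the 7 as deposited and were higher on the B-cell scale. BCL6 was measured at 14341 and 13454 counts in DMSO, 13301 and 13039 in EPZ-6438, 13277 and 13233 in MS8815N, and 7893 and 9255 in MS8815. MEF2B was measured at 24318 and 24789 in DMSO, 26360.2 and 26438 in EPZ-6438, 26338 and 26376 in MS8815N, and 15411 and 15389 in MS8815. The 4 libraries of the other 2 compounds were lower than DMSO for BCL6 and higher than DMSO for MEF2B. In MS8815, BCL6 was at 61.7% of DMSO (log2 fold change -0.70 ± 0.08, adjusted p = 0.00081) and MEF2B at 62.7% (-0.67 ± 0.03, adjusted p = 4.5e-05). After quantile normalisation they were lower by less, -0.38 (adjusted p = 0.0119) and -0.39 (adjusted p = 0.000295). On the B-cell scale they were higher by 0.30 (adjusted p = 0.0221) and 0.33 (adjusted p = 0.000396). MEF2B shares its exons with the readthrough gene BORCS8-MEF2B, at 665 and 645 counts in DMSO and 429 and 357 in MS8815, so the division of reads between them is uncertain.

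PRDM1 was scarce in every library. It was measured at 16.5 and 20.6 counts in DMSO, 44.5 and 22 in EPZ-6438, 11.95 and 63.6 in MS8815N, and 84.8 and 89.5 in MS8815. Both MS8815 libraries were above all others, while the MS8815N libraries lay below and above the DMSO pair. PRDM1 rose 4.69-fold in MS8815 (log2 fold change 2.16 ± 0.34, adjusted p = 0.00346). Its call was lost without DMSO replicate 1 (adjusted p = 0.0730), without DMSO replicate 2 (0.0613) and after quantile normalisation (log2 fold change 0.84, adjusted p = 0.0824), and it passed on the B-cell scale (3.15, adjusted p = 0.000756). In the MS8815 table the values rest on an estimated 38 and 47 reads in MS8815 and 19 and 24 in DMSO. The same DMSO libraries gave 16.4 and 20.9 in the EPZ-6438 table and 16.0 and 20.4 in the MS8815N table. These read estimates are therefore approximate. The summed level of the adherent-cell markers was also higher in MS8815 than in DMSO, as given above. In MS8815N that sum was 574 to 590.1 CPM, while PRDM1 lay below DMSO in replicate 1 and above it in replicate 2. The part of these markers in the PRDM1 result was not tested.

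IRF4, which with PRDM1 drives plasma-cell differentiation, was listed at 0 and 1.29 counts in DMSO and 21.5 and 4.26 in MS8815, on the scale of the MS8815 table. These correspond to an estimated 0 and 2 reads in DMSO and 13 and 3 in MS8815. All 3 tables share the DMSO libraries, so IRF4 was listed in the MS8815 table only through its MS8815 reads. Its higher values there follow from that listing, and none of its values below tests a rise. The MS8815 libraries were both above DMSO but unequal, and the log2 fold change of 2.84 ± 0.98 did not pass (adjusted p = 0.0744) and depends on the added count. After quantile normalisation it was 2.18 (adjusted p = 0.124), and on the B-cell scale 3.76 (adjusted p = 0.0458). Of the 4 leave-outs, those without MS8815 replicate 1 (1.80, adjusted p = 0.174), DMSO replicate 1 (2.25, adjusted p = 0.369) and DMSO replicate 2 (3.44, adjusted p = 0.205) did not pass. The 1 without MS8815 replicate 2 did (3.89, adjusted p = 0.0311), with a single MS8815 library assumed to vary like the DMSO pair. BACH2, the restraint on this programme, was measured at 190.5 and 359 counts in DMSO, 229.7 and 214 in EPZ-6438, 193 and 232 in MS8815N, and 592 and 377 in MS8815. Both MS8815 libraries were the highest, the lower of them just above DMSO replicate 2. Its log2 fold change of 0.85 ± 0.36 did not pass as deposited (adjusted p = 0.104) or after quantile normalisation (0.21, adjusted p = 0.630). Leaving out 1 library moved it between 0.39 (without DMSO replicate 1) and 1.31 (without DMSO replicate 2), with 0 of 4 called. It passed in the joint fit of all 8 libraries (0.85, adjusted p = 0.0484) and passed on the B-cell scale (1.85, adjusted p = 0.00869). The joint fit takes 1 spread from all 4 groups. BACH2 differed between replicates by 0.91 in DMSO and 0.65 in MS8815, but by 0.10 in EPZ-6438 and 0.26 in MS8815N.

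**Figure D2:**
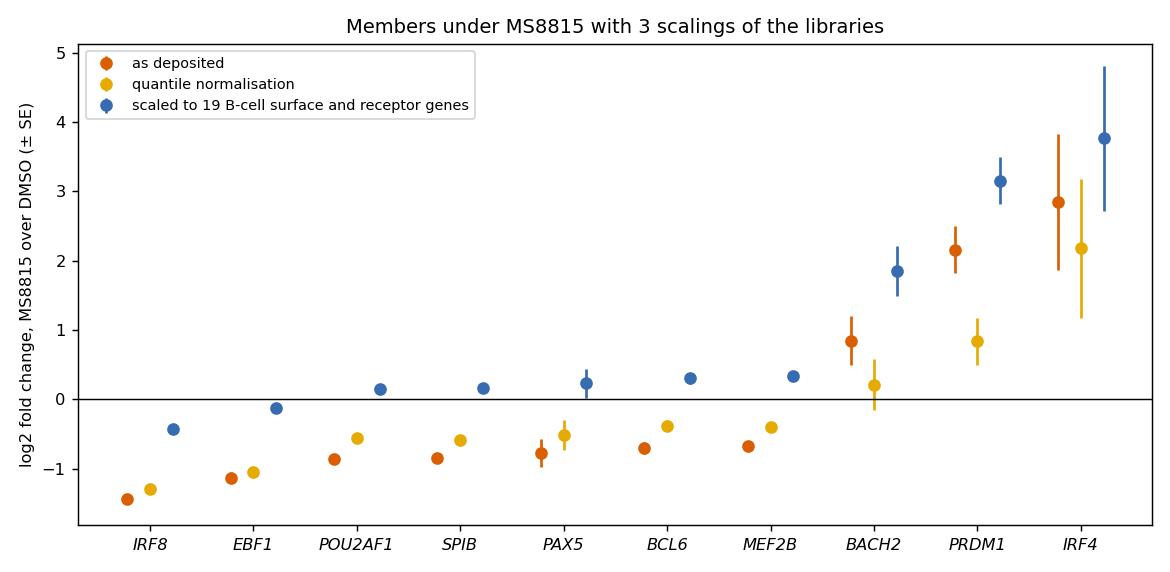
Log2 fold change of each member, MS8815 over DMSO, with its SE (vertical axis) for 3 ways of scaling the libraries; each point is the difference of 2 MS8815 and 2 DMSO libraries. IRF8 and EBF1 are below 0 with all 3, PRDM1, IRF4 and BACH2 are above 0 with all 3, and POU2AF1, SPIB, PAX5, BCL6 and MEF2B change sign when the 19 B-cell genes set the scale.

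Ratios of a member to POU2AF1 within a library do not depend on a single scaling factor for that library, as in the deposited and the B-cell scaling, although quantile normalisation can alter them. POU2AF1 was taken as the reference after its values were seen, and the ratios are given as a description. SPIB was 45.2% and 44.4% of POU2AF1 in DMSO, 44.1% and 46.4% in MS8815, 45.8% and 44.5% in EPZ-6438, and 43.1% and 44.3% in MS8815N. The 8 libraries thus held SPIB and POU2AF1 in nearly 1 ratio. IRF8 was 21.3% and 21.4% of POU2AF1 in DMSO, 23.6% in both EPZ-6438 libraries, 23.1% and 22.2% in MS8815N, and 14.5% and 14.3% in MS8815. EBF1 was 13.4% and 14.0% in DMSO, 12.1% and 12.4% in EPZ-6438, 13.2% and 12.3% in MS8815N, and 11.4% in both MS8815 libraries. IRF8, and to a smaller extent EBF1, were therefore lower relative to POU2AF1 in both MS8815 libraries than in any other library.

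MEF2B was 1.46 and 1.47 times POU2AF1 in DMSO, 1.65 and 1.61 in EPZ-6438, 1.67 and 1.68 in MS8815N, and 1.67 in both MS8815 libraries. This ratio was higher in all 6 compound libraries than in both DMSO libraries. PRDM1 was 0.0990% and 0.123% of POU2AF1 in DMSO and 0.918% and 0.974% in MS8815, with 0.0756% to 0.405% in the other compounds. BACH2 was 1.14% and 2.14% in DMSO, 1.22% to 1.47% in the other compounds and 6.41% and 4.10% in MS8815. BCL6 ranged from 79.2% to 85.9% in 7 libraries and was 101% in MS8815 replicate 2, and PAX5 ranged from 30.8% to 51.7%, with both MS8815 values at or above DMSO replicate 2.

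**Figure D3:**
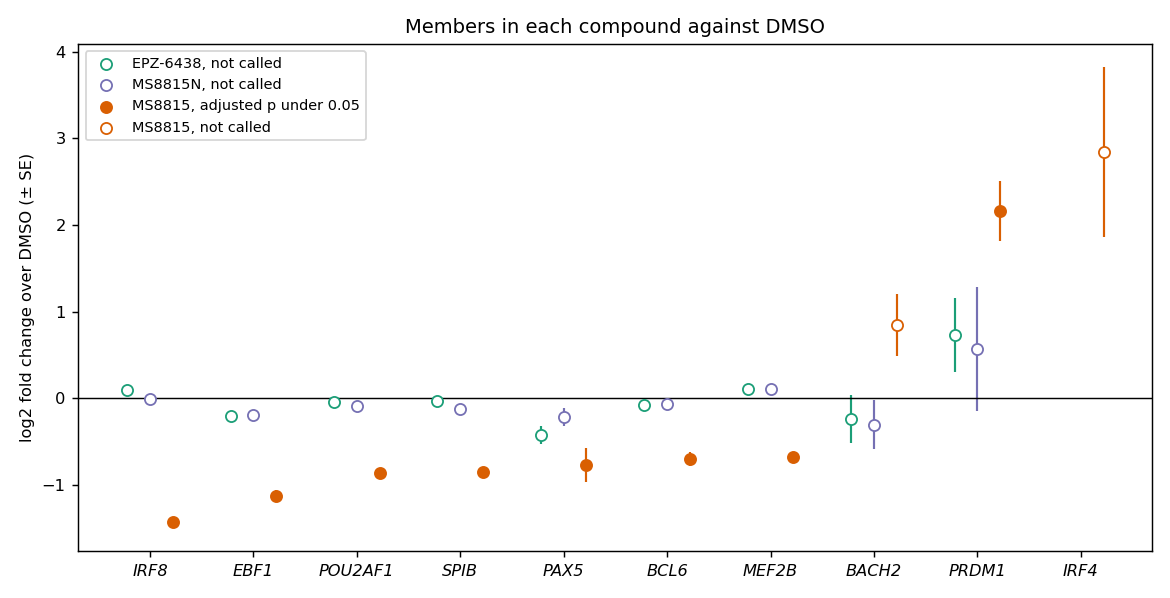
Log2 fold change over DMSO with its SE (vertical axis) of each member in the 3 compounds as deposited, filled where the adjusted p was under 0.05. The 8 filled points are all from MS8815, and the EPZ-6438 and MS8815N points lie between -0.42 and 0.10 for all members but PRDM1.

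With EPZ-6438, the catalytic inhibitor, no member passed. The count was 0 of 9 in limma, against a background of 0.0328% of 18320 genes, and 4 of 9 members and 3076 genes had an unadjusted p under 0.05. Without a trend in the prior variance, MEF2B passed (adjusted p = 0.0471), as did 0.922% of all genes. The 4 with an unadjusted p under 0.05 were PAX5 (log2 fold change -0.42, 95% interval -0.67 to -0.17, adjusted p = 0.151) and EBF1 (-0.20, interval -0.34 to -0.07, adjusted p = 0.152), both lower, and MEF2B (0.10, interval 0.06 to 0.15, adjusted p = 0.108) and IRF8 (0.10, interval 0.0015 to 0.19, adjusted p = 0.279), both higher. BCL6 differed by -0.08 (interval -0.16 to 0.01), SPIB by -0.03 (-0.11 to 0.04) and POU2AF1 by -0.05 (-0.11 to 0.01), so that a fall of the size seen in MS8815 lies outside each interval. PRDM1 (0.73, interval -0.29 to 1.75) and BACH2 (-0.24, interval -0.88 to 0.41) had wide intervals. The libraries did not overlap with DMSO for 8 of 9 members, as for 48.1% of all genes.

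With MS8815N, the non-PROTAC analog, no member passed either. The count was 0 of 9 in limma, against a background of 0.533% of 18398 genes, and 4 of 9 members and 2894 genes had an unadjusted p under 0.05. After quantile normalisation MEF2B passed (0.12, adjusted p = 0.0480), as did 0.495% of all genes. As deposited, MEF2B was 0.10 higher (interval 0.05 to 0.15, adjusted p = 0.0969), while SPIB (-0.12, interval -0.20 to -0.05), POU2AF1 (-0.09, interval -0.14 to -0.03) and EBF1 (-0.19, interval -0.33 to -0.05) had lower values without passing. IRF8 differed by -0.0039 (interval -0.10 to 0.10) beside -1.43 in MS8815. PRDM1 (0.57, interval -1.12 to 2.27) rested on replicate 2, with 1.73 without replicate 1 and -0.59 without replicate 2. The libraries did not overlap with DMSO for 5 of 9 members, as for 46.7% of all genes.

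The compounds were then compared with each other at 1 dose and time, 3 pairs for 9 members. These 27 differences come from a joint fit of all 8 libraries, with p adjusted over 17467 shared genes. The fit takes 1 spread from all groups. Over genes of at least 100 counts, the median log2 difference between replicates was 0.14 in MS8815 and 0.07 in each other group. For MS8815 its p-values can therefore be too small and its intervals too narrow. MS8815 against its non-PROTAC analog MS8815N gave 8 of 9 members past the test, 7 lower and 1 higher, against a background of 50.6% (26.3% lower, 24.2% higher). IRF8 differed by -1.43 (95% interval -1.53 to -1.32), EBF1 by -0.94, POU2AF1 and MEF2B by -0.78 each, SPIB by -0.72, BCL6 by -0.63 and PAX5 by -0.56 (interval -0.95 to -0.16, adjusted p = 0.0260). BACH2 was 1.16 higher (interval 0.44 to 1.87, adjusted p = 0.0145). PRDM1 was 1.61 higher without passing (interval -0.0062 to 3.22, adjusted p = 0.0903), and passed without MS8815N replicate 2 (2.77, adjusted p = 0.00613). The calls of PAX5 and BACH2 were each lost in some of the leave-outs, with adjusted p up to 0.119 and 0.0862, and after quantile normalisation (-0.35, adjusted p = 0.150, and 0.63, adjusted p = 0.149).

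MS8815 against EPZ-6438 gave 7 of 9 members past the test, 6 lower and 1 higher, against a background of 50.6%. IRF8 differed by -1.53 (interval -1.64 to -1.42), EBF1 by -0.92, POU2AF1 by -0.82, SPIB by -0.81, MEF2B by -0.78 and BCL6 by -0.62, and BACH2 was 1.09 higher (interval 0.37 to 1.81, adjusted p = 0.0190). PAX5 (-0.35, interval -0.74 to 0.04, adjusted p = 0.126) and PRDM1 (1.45, interval -0.17 to 3.06, adjusted p = 0.122) did not pass. The BACH2 call was lost without MS8815 replicate 1 and without either EPZ-6438 library (adjusted p up to 0.0877) and after quantile normalisation (0.58, adjusted p = 0.175), and PAX5 passed without MS8815 replicate 1 (-0.63, adjusted p = 0.00371). On the B-cell scale IRF8 was the 1 member lower than in either other compound, with 6 members higher against MS8815N (background 76.9%, of which higher 75.7% and lower 1.23% of all genes) and 7 against EPZ-6438 (background 77.4%, higher 76% and lower 1.31%).

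MS8815N and EPZ-6438 were not distinguished by any member, 0 of 9 in limma against a background of 0.172%, with 1 member and 1070 genes at an unadjusted p under 0.05. The intervals bound the difference tightly for MEF2B (-0.0023, interval -0.05 to 0.04), POU2AF1 (-0.04, interval -0.10 to 0.02), SPIB (-0.09, interval -0.17 to -0.01) and BCL6 (0.01, interval -0.14 to 0.16). They are wide for PAX5 (0.21, interval -0.19 to 0.60), BACH2 (-0.07, interval -0.79 to 0.65) and PRDM1 (-0.16, interval -1.77 to 1.45). The joint fit's spread includes DMSO and MS8815, where PAX5 differed between replicates by 0.37 and 0.55 on the log2 scale. In EPZ-6438 and MS8815N it differed by 0.02 and 0.09, and BACH2 was also closer there. For these 2 members the intervals can therefore be too wide for this pair.

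**Figure D4:**
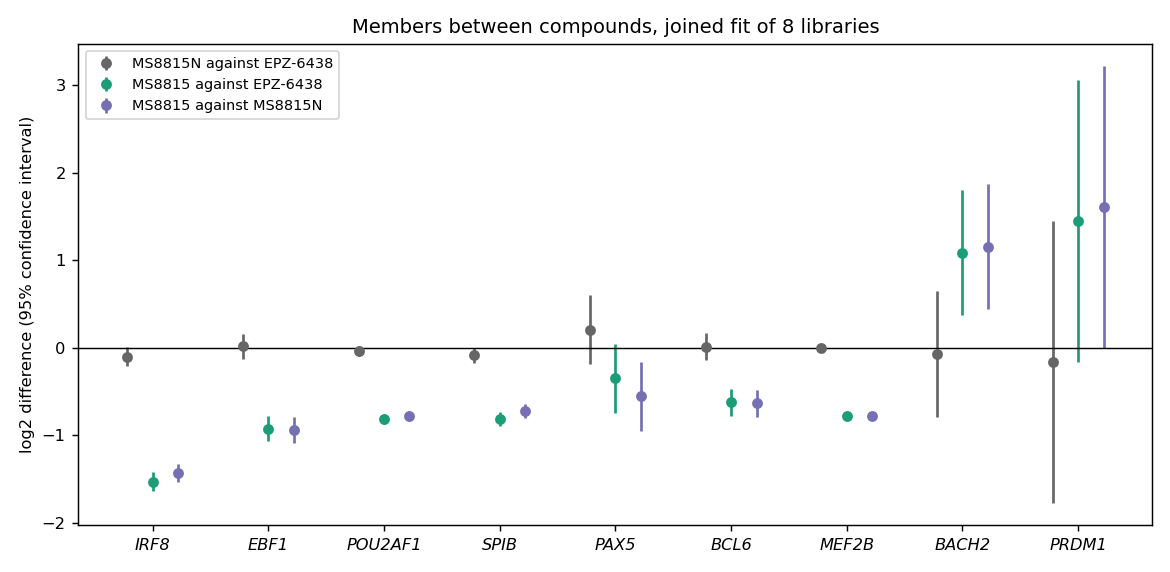
Log2 difference between compounds with its 95% confidence interval (vertical axis) for the 9 members listed in all 3 tables, from the joint fit of 8 libraries. IRF8 shows the lowest differences, -1.43 and -1.53 for MS8815 against the other compounds, and the MS8815N against EPZ-6438 points lie near 0 with wide intervals for BACH2 and PRDM1.

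Other genes of the same circuits were taken from lists in MS8815 against DMSO and described by counts and medians as deposited, followed by the median on the B-cell scale. On that scale the median of all genes was 0.98, so a negative median as deposited can turn positive. As deposited, 24.5% of all genes were called higher and 22.4% lower, and each count below stands beside these shares. Of 19 other B-cell transcription factors, 11 were lower and 7 higher, with a median of -0.50 (0.51 on the B-cell scale). The Ikaros factors IKZF1 (-1.22 ± 0.05) and IKZF3 (-0.90 ± 0.05) and ETS1 (-0.78 ± 0.04) fell. Of 9 germinal-centre genes, 7 were lower and 0 higher with a median of -1.003 (0.00 on the B-cell scale), among them RGS13, a regulator of G-protein signalling (-1.45 ± 0.05), ELL3 (-1.18 ± 0.06) and SERPINA9 (-0.80 ± 0.05).

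Of 12 genes that PAX5 and EBF1 activate, 8 were lower and 2 higher (median -0.96, and 0.05 on the B-cell scale). FCRLA (-1.10 ± 0.03), the B-cell receptor chain CD79B (-0.84 ± 0.03) and VPREB3 (-2.22 ± 0.08) fell, and 10 of the 12 also belong to the B-cell surface list. The 2 that rose were CIITA, the activator of MHC class II genes (2.27 ± 0.59), and LEF1 (2.62 ± 0.53), named after their values were seen. Of 8 partners and corepressors, 4 were lower and 0 higher (median -0.19, and 0.81 on the B-cell scale), near the 46.9% of all genes called. MTA3, the NuRD subunit through which BCL6 acts in germinal-centre cells, fell by 0.89 ± 0.06, and NCOR1, a corepressor of BCL6, fell by 0.21 ± 0.05.

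Of 13 genes known to be repressed by BCL6, 7 were higher and 4 lower (median 0.45, and 1.45 on the B-cell scale). CD69, 1 of the 7 higher, is absent from the EPZ-6438 and MS8815N tables, which share the DMSO libraries. Like IRF4 it is listed only through its MS8815 reads, so its place among the 7 follows from the listing. The adhesion receptor CD44 (3.77 ± 0.08) and the cell-cycle inhibitor CDKN1A (3.73 ± 0.14) rose, and BCL2 fell by 0.60 ± 0.04. CD44 and CDKN1A are also expressed widely outside B cells, and 13 of 16 adherent-cell markers were higher in the same libraries with a median of 3.71. The part of such cells in these values was not tested. Plasma-cell genes did not move as 1 block. Of 15, 6 were higher and 7 lower (median -0.24, and 0.76 on the B-cell scale), and the secretory genes JCHAIN (-1.39 ± 0.05) and MZB1 (-1.46 ± 0.05) and the receptor CD27 (-1.46 ± 0.07) fell. After their values were seen, SDC1, the plasma-cell and epithelial surface proteoglycan CD138 (3.39 ± 0.18), and XBP1, a regulator of the secretory pathway (0.45 ± 0.10), are named among the 6 that rose.

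Family relatives did not follow the members as a class. Of 15, 6 were higher and 4 lower with a median of 0.11 (1.117 on the B-cell scale). POU2F2, the octamer-binding partner of POU2AF1, fell by 0.89 ± 0.07, close to POU2AF1 itself. IRF3 fell by 0.59 ± 0.07, and MEF2C rose by 3.17 ± 0.39, opposite to MEF2B. In EPZ-6438 none of these lists held a called gene, and in MS8815N the called genes were 1 plasma-cell gene and 1 adherent-cell marker, both higher.

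**Figure D5:**
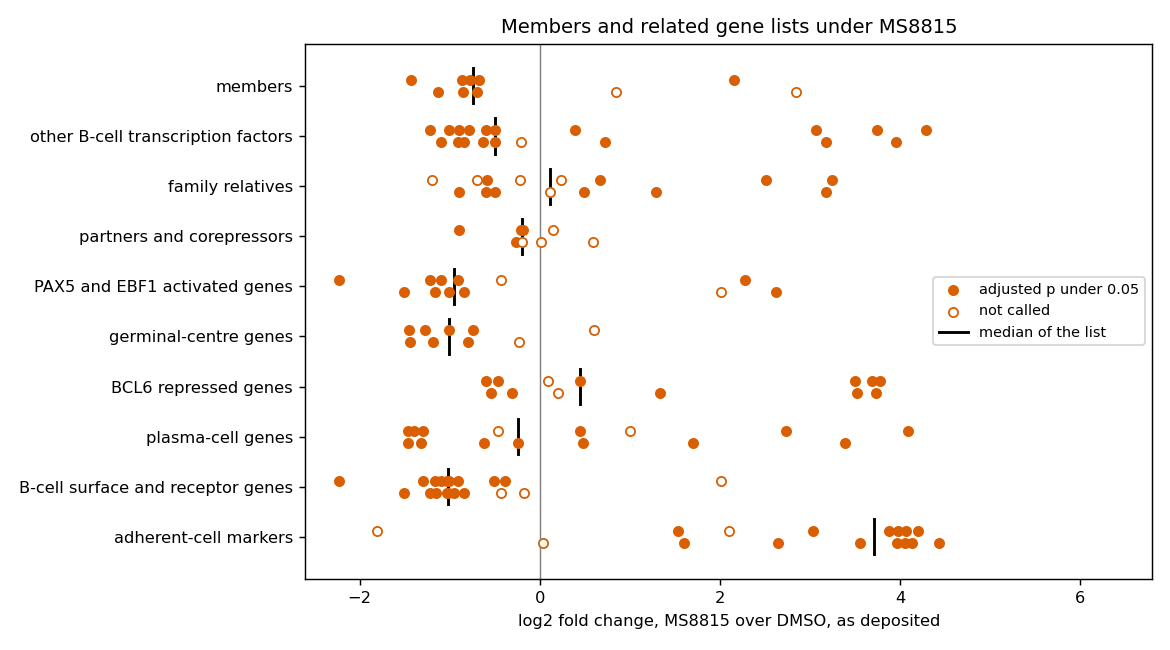
Log2 fold change, MS8815 over DMSO as deposited (horizontal axis), of the members and of the genes in 9 lists, filled where the adjusted p was under 0.05, with the median of each list as a bar. The germinal-centre and B-cell surface lists have medians of -1.003 and -1.02, the adherent-cell markers 3.71, and the plasma-cell genes lie on both sides of 0.

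The genes whose pattern over the 8 libraries was nearest to each member were ranked by the root mean square difference of log2 values centred on each gene's mean, among 11165 genes with a mean of at least 100 counts. IRF8 was nearest to a transcript known by a clone name (0.031), then to LRMP (0.034) and MZB1 (0.048). POU2AF1 was nearest to RNF19B (0.014), TTLL12 (0.017) and SYPL1 (0.020), and SPIB to SEPT9 (0.021), PA2G4 (0.021) and RCC2 (0.029), with POU2AF1 at rank 4 (0.031). BCL6 was nearest to CCNE1 (0.033), EBF1 to DOCK8 (0.031) and MEF2B to MTFP1 (0.025). PAX5 and BACH2 had no near neighbour, with LARP1B at 0.10 and LTBP3 at 0.21. SPIB and POU2AF1 were the 2 members whose patterns were most alike.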

How the data were processed

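RNA-seq of 8 SUDHL6 libraries was used. Per the submitters' processing notes, reads were handled with STAR 2.4.2 and Salmon on GRCh38; which tool gave the counts is not given in the sources used here. The authors deposited log2-type values, variance-stabilised by DESeq2 as the tables' names say, in 3 tables of 18744, 18320 and 18398 genes, each with the same 2 DMSO libraries and 2 libraries of 1 compound, normalised separately. The transform was inverted in closed form, taking each table's minimum as the value at a count of 0. The tables were joined on the MS8815N scale through the shared DMSO values. These then matched within 7e-11 (log2) over 17219 genes, allowing 1 constant per gene and 1 per library. Read estimates leave out the constant per gene and are approximate. Depth was estimated from the step between low values; 38.2% to 61.7% of low values lay within 0.02 of a whole multiple, where chance gives 4%.

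Compound against DMSO was tested with limma 3.58.1 (R 4.3.3) with a trend on the deposited values, with Benjamini-Hochberg adjustment over all genes; fold changes are on log2(normalised count + 1). With 2 libraries a group, the fit has 2 residual degrees of freedom, and 4 in the joint fit. Scripts were tested on simulated data. Alternatives were scaling, pseudocount, filter, trend, joint fit, replicate block and leaving out each library. Named genes are all members, EZH2, up to 3 genes with the smallest p of each list, the 3 most abundant adherent-cell markers in MS8815 and the 3 nearest genes per member; 1 gene that the rule names is not reported here. The members and lists were chosen with earlier results of these data known. T and NK cell markers gave 0 called of 5 and myeloid markers 3 higher of 5 in MS8815 (medians -0.12 and 2.60).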

Additional observations from a re-analysis of the deposited data

How the results depend on the processing

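The scaling of the libraries matters most, and depth limits PRDM1 and IRF4. Scaled to the B-cell surface genes, MS8815 against DMSO turned for BCL6 (0.30), MEF2B (0.33), PAX5 (0.23), POU2AF1 (0.14) and SPIB (0.16). Against MS8815N it turned for BCL6 (0.34), EBF1 (0.034), MEF2B (0.20), PAX5 (0.42), POU2AF1 (0.20) and SPIB (0.25), and against EPZ-6438 for BCL6 (0.40), EBF1 (0.10), MEF2B (0.24), PAX5 (0.67), POU2AF1 (0.21) and SPIB (0.21). The same scaling turned uncalled differences of IRF8 in MS8815N against DMSO (0.027) and of MEF2B (0.045) and POU2AF1 (0.0059) in MS8815N against EPZ-6438. Quantile normalisation turned uncalled differences of POU2AF1 (0.0016) and SPIB (0.0095) in EPZ-6438 and of IRF8 (0.046) in MS8815N. The count of called members went from 0 to 1 in EPZ-6438 without a trend and in MS8815N after quantile normalisation.

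Leaving out 1 library turned uncalled differences of BACH2 in EPZ-6438 (range -0.69 to 0.22) and MS8815N (-0.76 to 0.15), both without DMSO replicate 2. In MS8815N it also turned IRF8 (-0.035 to 0.027, with 0.0061 without DMSO replicate 2) and PRDM1 (-0.59 to 1.73). In MS8815N against EPZ-6438 it turned EBF1 (-0.038 to 0.071), PRDM1 (-1.32 to 1.00), BCL6 (-0.0050 to 0.024) and BACH2 (-0.20 to 0.062). The cause was not tested.

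The main fits did not pair libraries by replicate number. Over 11165 genes, deviations of same-numbered libraries correlated at -0.04 to 0.08. With 2 libraries a group, this cannot decide whether same-numbered libraries shared a culture or batch, and the labels do not say. With the replicate block, called members were 8 for MS8815 against DMSO, 8 against MS8815N, 7 against EPZ-6438 and 0 in the other 3 comparisons. The share of all genes called with the block was not determined, so these counts stand without a background.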

Other observations

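Beyond the members, a set of transcription factors that were low in vehicle-treated cells was higher in MS8815 against DMSO, named after their values were seen. ETV6, an ETS-family repressor, had a log2 fold change of 4.28 ± 0.30, the E-protein inhibitor ID3 3.95 ± 0.28, the quiescence and trafficking factor KLF2 3.74 ± 0.41 and BHLHE41 3.06 ± 0.81. TCF3, the E-protein that ID3 binds, rose by 0.72 ± 0.04 from an already high level. The other lineage relatives EBF4 (3.25 ± 0.53), IRF1 (2.51 ± 0.31) and IRF7 (1.29 ± 0.17) were also higher, and SPI1 (PU.1) fell by 0.50 ± 0.07. BHLHE41 rested on unequal MS8815 libraries (mean 38.7, SD 32.4 counts on the scale of the MS8815 table, adjusted p = 0.0468 in limma). These values are as deposited, on which scale all genes had a median of 0.00. That median depends on level, being -0.19 over the 9372 genes left when the lower 50% were removed. A median for genes as low in DMSO as these was not determined. In the same 2 MS8815 libraries, which had 13.0 and 14.6 M reads against 30.9 to 31.7 M in DMSO, 13 of 16 adherent-cell markers were higher (median 3.71) and 3 of 5 myeloid markers were higher (median 2.60). Their part in these values was not tested.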
